A study of Mus musculus with 6 samples.

Results

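The genes described here are 10 genes of the HIF pathway, *Hif1a*, *Epas1*, *Vegfa*, *Bnip3*, *Bnip3l*, *Ndrg1*, *Adm*, *Pdk1*, *Ddit4* and *Ankrd37*, taken from the 54331 genes listed in the RNA-seq table. They comprise both major HIF-α subunits and 8 of their best known targets outside the glycolytic enzymes. The rule takes them by symbol alone, although they were proposed with earlier results of these data known. All 10 were found, and all 10 reached the mean of 1 TPM required for the test (TPM is a length-corrected transcript level that adds up to the same total in each well). The question was whether transcripts of this pathway differed when AKT was activated in cells undergoing reprogramming.

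RNA was taken at 10 dpi from 6 wells of OE-MEFs, fibroblasts derived from pooled male E13.5 embryos of an Oct4-EGFP transgenic line on a mixed C57BL/6, DBA/2 and ICR background. Both groups carried retroviral Oct4, Sox2 and Klf4 (OSK) and AKT-MER, in which myristoylated AKT is joined to a modified estrogen receptor and becomes active when 4-hydroxytamoxifen (4OHT) binds. From 3 dpi, 3 wells received 1 µM 4OHT (OSKA + 4OHT) and 3 wells received the ethanol vehicle (OSKA − 4OHT). No library of cells without AKT-MER was analysed here, so an effect of 4OHT itself and an effect of active AKT cannot be told apart. The wells came from 1 pooled cell preparation, and the p-values therefore measure the spread between wells, which may be technical. The *Akt1* transcript, to which endogenous and transduced sequences can both contribute, stood at 749, 751 and 653 TPM in OSKA − 4OHT and at 621, 642 and 448 TPM in OSKA + 4OHT (log2 fold change −0.35, adjusted p = 0.286, limma-trend with Benjamini-Hochberg adjustment).

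Hypoxia-inducible factors are pairs of an oxygen-sensitive α subunit (HIF-1α from *Hif1a*, HIF-2α from *Epas1*) and the stable partner ARNT. With oxygen present, prolyl hydroxylases of the EGLN family mark the α subunit, VHL binds it and the proteasome destroys it, so the factor is controlled largely at the level of protein. When the α subunit persists, the pair binds short DNA elements near genes for blood vessel growth, mitochondrial turnover, pyruvate use and stress responses. Growth factor signalling through PI3K, AKT and mTORC1 is also known to raise HIF-1α in cells with normal oxygen. Protein of either subunit was not analysed here.

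The core of the element that HIF binds is ACGTG or GCGTG, and the 250 bases before a RefSeq start site are shown for the 3 targets that rose in OSKA + 4OHT and, beside them, for *Ankrd37*, a target that did not pass the test. The sequences are from RefSeq on GRCm38.p6 and run 5′ to 3′ on the gene's strand, with each ACGTG or GCGTG of either strand in capitals. A match on the other strand therefore reads CACGT or CACGC, and a palindromic CACGTG counts as ACGTG on both strands. *Pdk1* and *Vegfa* each have 2 start sites in the RefSeq table, and the one nearest to the start of the gene in the GENCODE annotation was taken.
Bnip3: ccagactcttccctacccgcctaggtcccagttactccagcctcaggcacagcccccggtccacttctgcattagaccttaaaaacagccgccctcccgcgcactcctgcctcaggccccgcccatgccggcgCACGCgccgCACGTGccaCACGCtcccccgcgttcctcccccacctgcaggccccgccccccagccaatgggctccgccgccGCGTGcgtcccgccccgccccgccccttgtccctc
Pdk1: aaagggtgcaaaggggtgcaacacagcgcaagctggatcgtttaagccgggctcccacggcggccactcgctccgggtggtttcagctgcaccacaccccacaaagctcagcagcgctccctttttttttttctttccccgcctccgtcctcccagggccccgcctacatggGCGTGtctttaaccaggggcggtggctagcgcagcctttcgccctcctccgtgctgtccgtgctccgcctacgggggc
Vegfa: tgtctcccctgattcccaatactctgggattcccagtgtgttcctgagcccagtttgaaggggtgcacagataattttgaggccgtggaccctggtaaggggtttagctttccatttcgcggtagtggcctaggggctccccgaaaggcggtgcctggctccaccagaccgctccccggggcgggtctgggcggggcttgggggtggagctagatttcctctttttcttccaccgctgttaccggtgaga
Ankrd37: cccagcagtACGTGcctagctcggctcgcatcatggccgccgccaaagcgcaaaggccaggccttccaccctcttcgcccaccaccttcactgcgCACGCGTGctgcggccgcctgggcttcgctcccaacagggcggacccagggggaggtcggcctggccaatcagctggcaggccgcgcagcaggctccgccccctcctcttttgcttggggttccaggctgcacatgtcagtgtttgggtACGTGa

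The *Bnip3* window (chr7:138909507-138909756, minus strand) held 5 matches, 2 of ACGTG and 3 of GCGTG, and the ACGTG matches were the 2 strands of 1 CACGTG. The *Pdk1* window (chr2:71872974-71873223, plus strand) held 1 match, a GCGTG 78 to 74 bases before the start site. The *Vegfa* window (chr17:46032378-46032627, minus strand) held 0 matches, which says only that these letters are not in this window. The window at the other RefSeq start site of *Vegfa*, 7206 bases from the annotated gene start, held 2 matches, and that of *Pdk1*, 1680 bases from it, held 0. The *Ankrd37* window (chr8:45999851-46000100, minus strand) held 4 matches, 2 of each kind, but its RefSeq start site is 5857 bases from the annotated gene start, so that it lies within the annotated gene and is not placed like the *Bnip3*, *Pdk1* and *Vegfa* windows, which are at 0 to 13 bases. Of the 7 members with an entry (*Hif1a*, *Vegfa*, *Bnip3*, *Adm*, *Pdk1*, *Ddit4* and *Ankrd37*), 6 had at least 1 match in the window taken. Among these, the *Hif1a* window also lies within the annotated gene, as its RefSeq start site is 6492 bases from the annotated gene start. Over all 32851 windows of this length in the RefSeq table, 16.6% held ACGTG, 28.2% held GCGTG, 38.6% held either and 6.02% held CACGTG. The windows of the 7 members were 56.8% to 72.4% G or C, and they were not compared with windows of like composition. A match is a description of the sequence and not evidence of binding.

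In the OSKA + 4OHT group, *Bnip3*, *Pdk1* and *Vegfa* rose by 1.43 to 2.07 on the log2 scale, while the transcripts of the HIF-α subunits themselves did not pass the test. Genes counted as called had an adjusted p below 0.05 together with a log2 fold change beyond 1 in either direction. By this rule 3 of the 10 genes were called higher and 0 lower, against 2.87% of the 15382 tested genes called higher and 1.37% called lower. At an unadjusted p under 0.05 the members numbered 4, all of them higher, against 21.3% of all tested genes in either direction. The wells of the groups did not overlap for 4 of the 10 genes, each higher in OSKA + 4OHT, against 18.1% of tested genes that were higher without overlap and 10.0% that were lower without overlap. The median log2 fold change was 0.64 over the 10 genes and 0.14 over all tested genes, and a fold change is best read against the latter shift. Leaving out OSKA + 4OHT replicate 1, OSKA + 4OHT replicate 2 or OSKA − 4OHT replicate 2 brought the number called higher to 1, and leaving out OSKA − 4OHT replicate 1 or 3 brought it to 2. In bulk RNA, fewer cells of a type and less RNA per cell cannot be told apart. Fold changes here are differences of log2(TPM + 0.5), so that of a gene with low TPM comes out too small.

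**Figure D1:**
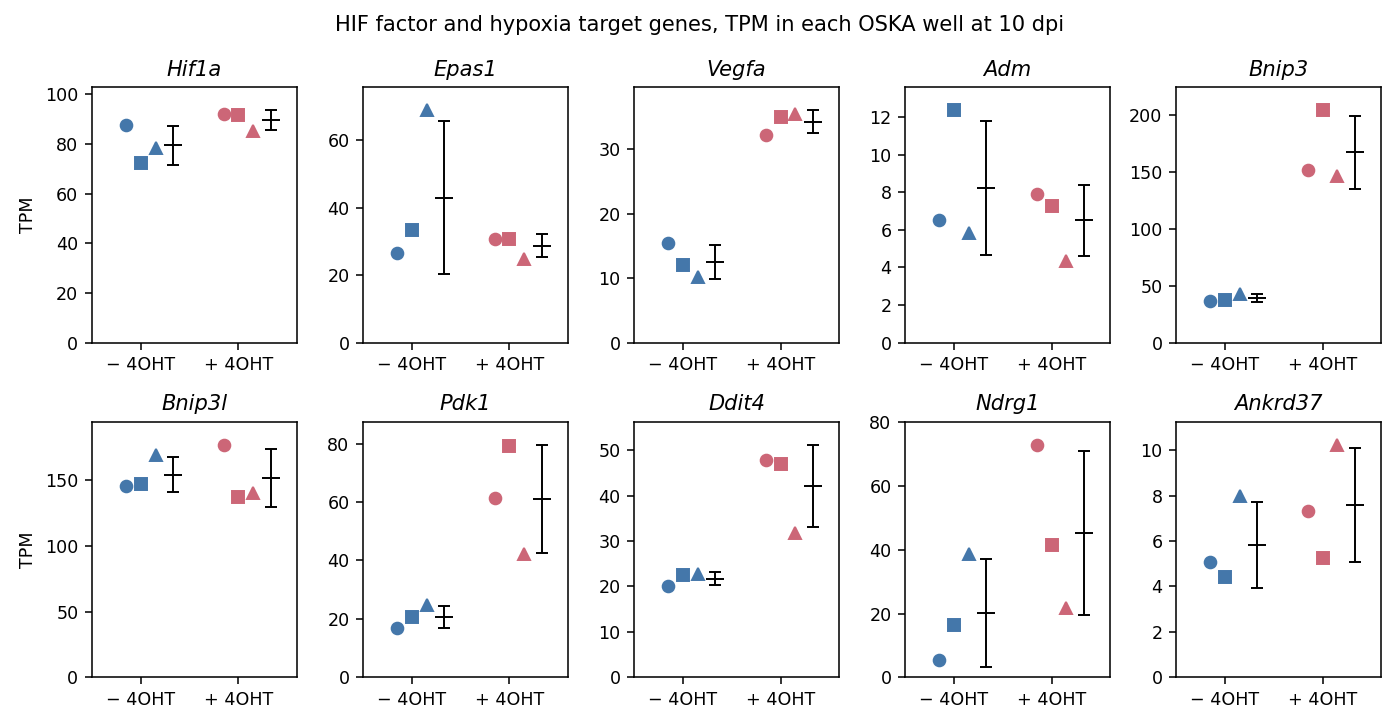
TPM of each gene (vertical axes, from 0, a scale of its own for each gene) in the OSKA − 4OHT wells (blue) and OSKA + 4OHT wells (red). Circles, squares and triangles are replicates 1, 2 and 3, and the black bar is the mean ± SD of 3 wells. The groups are separate for *Vegfa*, *Bnip3*, *Pdk1* and *Ddit4*, and overlap for the other 6 genes.

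*Hif1a* (ENSMUSG00000021109; chr12:73901375-73947530, plus strand, GRCm38) encodes HIF-1α. Its level was 87.7, 72.3 and 78.2 TPM in OSKA − 4OHT replicates 1, 2 and 3, and 92.1, 91.5 and 85.2 TPM in OSKA + 4OHT replicates 1, 2 and 3. The lowest OSKA + 4OHT well lay under the highest OSKA − 4OHT well, so the groups overlapped. The means were 79.4 ± 7.78 and 89.6 ± 3.83 TPM (SD, n = 3 wells), and the log2 fold change of 0.18 (SE 0.13, 95% interval −0.14 to 0.50, limma-trend adjusted p = 0.511) was close to the median of all tested genes. The upper bound of this interval lies below the change of every member that rose. *Gm49321*, which overlaps *Hif1a* on the same strand, shares 151 identical bases with it and reached at most 16.2 TPM.

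*Epas1* (ENSMUSG00000024140; chr17:86753700-86833410, plus strand) encodes HIF-2α, the subunit best known from endothelium and other restricted cell types. It stood at 26.7, 33.3 and 68.7 TPM in OSKA − 4OHT and at 30.6, 30.8 and 24.7 TPM in OSKA + 4OHT. OSKA − 4OHT replicate 3 was far above the other 5 wells, which lay between 24.7 and 33.3 TPM. The log2 fold change of −0.46 (SE 0.36, 95% interval −1.32 to 0.41) had an adjusted p of 0.532 by limma-trend, and without OSKA − 4OHT replicate 3 it was −0.06. A stretch of 117 of its 5516 bases is 90.6% identical to *Tmco1* (up to 153 TPM), and one of 102 bases is 92.2% identical to *Mrgpre* (up to 4.48 TPM). The level of *Epas1* relative to *Hif1a* in the same well was 0.304, 0.460 and 0.879 in OSKA − 4OHT and 0.333, 0.336 and 0.290 in OSKA + 4OHT. *Hif1a* was thus the more abundant α subunit in all 6 wells (ratio of *Epas1* to *Hif1a* between groups, exact 2-sided permutation p = 0.3).

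The genes whose log2 levels followed *Epas1* most closely over the 6 wells were *Tatdn1* (Pearson r 0.998), *Mapk14* (0.997) and *Acox3* (0.992). All 3 were highest in OSKA − 4OHT replicate 3, where *Tatdn1* reached 63.0 TPM against 11.5 to 19.9 TPM in the other wells. Those nearest to *Hif1a* were *Gm47761* (r 0.996), *Sugp2* (0.995) and *Pan3* (0.992), each lowest in OSKA − 4OHT replicate 2. Over so few wells a high r is common, as 276 tested genes exceeded an r of 0.9 with *Epas1* and 211 with *Hif1a*.

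Of the 6 tested genes among HIF subunits and coactivators (7 listed, *Hif1a* and *Epas1* included, with *Hif3a* under the filter), 0 passed an adjusted p of 0.05 in either direction by limma-trend, 1 had an unadjusted p under 0.05, and their median log2 fold change was 0.07, or −0.05 with trimmed-mean scaling or quantile normalization. *Arnt*, which supplies the shared partner subunit, stood at 25.1, 29.4 and 30.3 TPM in OSKA − 4OHT and at 37.9, 42.8 and 34.1 TPM in OSKA + 4OHT. The groups did not overlap, but the log2 fold change of 0.43 had an adjusted p of 0.210 by limma-trend.

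*Bnip3* (ENSMUSG00000078566; chr7:138890836-138909519, minus strand) encodes a protein of the outer mitochondrial membrane that recruits the autophagy machinery and marks mitochondria for removal. It stood at 36.8, 37.7 and 42.9 TPM in OSKA − 4OHT and at 151.8, 204.0 and 146.2 TPM in OSKA + 4OHT. Every OSKA + 4OHT well lay more than 3-fold above every OSKA − 4OHT well. The log2 fold change of 2.07 (SE 0.17, 95% interval 1.65 to 2.49, limma-trend adjusted p = 0.00376) was the largest of the 10 genes, and *Bnip3* was the only one of them called whichever single well was left out (adjusted p 0.0204 to 0.0362). Of 4 pseudogenes that share 93.4% to 98.9% identity over 544 to 567 of its 1756 bases, 3 were listed at 0 in all wells and *Gm9419* reached at most 1.71 TPM.

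*Bnip3l* (ENSMUSG00000022051; chr14:66985239-67008877, minus strand), also called NIX, encodes the closest relative of BNIP3 with the same role in mitophagy. It was at 145.1, 147.3 and 169.1 TPM in OSKA − 4OHT and at 176.5, 137.0 and 139.9 TPM in OSKA + 4OHT. The groups overlapped, with a log2 fold change of −0.03 (SE 0.15, 95% interval −0.39 to 0.32, limma-trend adjusted p = 0.928). The ratio of *Bnip3* to *Bnip3l* was 0.254, 0.256 and 0.254 in the 3 OSKA − 4OHT wells, a spread of less than 1%. *Bnip3* had only about 45.3, 96.4 and 63.6 reads in these wells, so this close agreement is not read as precision. In the OSKA + 4OHT wells the ratio was 0.860, 1.49 and 1.05.

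The pair therefore went from about 1 *Bnip3* transcript for every 4 of *Bnip3l* to near parity (means 0.254 ± 0.00132 and 1.13 ± 0.323, SD, n = 3; exact 2-sided permutation p = 0.1, the smallest that 3 against 3 wells allow, and 0.125 adjusted over the 5 within-well ratios and sums compared). Of 12 tested genes for the wider mitophagy machinery, among them *Pink1*, *Fundc1* and the LC3 and GABARAP genes, 0 passed an adjusted p of 0.05 by limma-trend. An unadjusted p under 0.05 was found for 3, all 3 lower, against 21.3% of all tested genes in either direction, so this count was near the background. The median log2 fold change of the 12 genes was −0.17.

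*Pdk1* (ENSMUSG00000006494; chr2:71873224-71903858, plus strand) encodes pyruvate dehydrogenase kinase 1, which switches off pyruvate dehydrogenase and so limits the entry of pyruvate into the TCA cycle. It stood at 17.0, 20.6 and 24.6 TPM in OSKA − 4OHT and at 61.5, 79.2 and 42.3 TPM in OSKA + 4OHT. All OSKA + 4OHT wells were above all OSKA − 4OHT wells, though they spread over 1.87-fold, with replicate 3 the lowest. On the log2 scale *Pdk1* rose by 1.51 (SE 0.27, 95% interval 0.85 to 2.16, limma-trend adjusted p = 0.0326). Short stretches of 124 to 142 of its 5185 bases are up to 91.2% identical to 11 other transcripts, which reached up to 305 TPM (*Wdr1*), and reads from these stretches may not be fully separated. The *Pdk1* call was lost when any well except OSKA + 4OHT replicate 3 was left out, with adjusted p-values of 0.0798 to 0.130 and log2 fold changes of 1.30 to 1.64.

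None of the other 3 kinases of this family passed the test (adjusted p 0.227 to 0.920, limma-trend). *Pdk2* stood at 8.79, 18.6 and 13.0 TPM in OSKA − 4OHT and at 18.6, 9.87 and 9.54 TPM in OSKA + 4OHT, and its groups overlapped. *Pdk3* had means of 37.8 ± 5.80 and 32.3 ± 1.29 TPM, and *Pdk4* of 1.68 ± 0.344 and 0.350 ± 0.0893 TPM (SD, n = 3). *Pdk3* was the most abundant of the 4 kinases in every OSKA − 4OHT well, and *Pdk1* in every OSKA + 4OHT well. *Pdk1* made up 24.7%, 28.7% and 30.5% of the summed TPM of the 4 kinases in OSKA − 4OHT and 54.1%, 64.8% and 51.0% in OSKA + 4OHT (exact 2-sided permutation p = 0.1, the smallest possible).

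The sum itself was 68.6, 71.8 and 80.6 TPM in OSKA − 4OHT and 113.7, 122.3 and 82.8 TPM in OSKA + 4OHT, so that OSKA + 4OHT replicate 3 was barely above the highest well without 4OHT. Among all 13 genes for the pyruvate dehydrogenase complex, its other kinases, its phosphatases and the mitochondrial pyruvate carrier, 0 passed an adjusted p of 0.05 by limma-trend. An unadjusted p under 0.05 was found for 5, 3 of them lower, against 21.3% of all tested genes in either direction. The median log2 fold change of the 13 genes was −0.21, or 0.0095 over the 10 genes that pass a filter at 5 TPM. A different gene of this list fell in each of 3 other fits, namely *Pdha1* with trimmed-mean scaling (adjusted p = 0.0443), *Pdp1* with quantile normalization (0.0489) and *Pdk4* without limma's trend (0.0276). *Pdk4* (mean 0.350 TPM with 4OHT) reached the mean of 1 TPM only through the wells without 4OHT, so its fall is not read as support.

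*Vegfa* (ENSMUSG00000023951; chr17:46016993-46032369, minus strand) encodes the secreted ligand that drives the growth of blood vessels. It stood at 15.4, 12.0 and 10.2 TPM in OSKA − 4OHT and at 32.2, 34.9 and 35.5 TPM in OSKA + 4OHT. The OSKA + 4OHT wells lay close together and all were above the highest OSKA − 4OHT well. *Vegfa* rose by 1.43 on the log2 scale (SE 0.20, 95% interval 0.95 to 1.91, limma-trend adjusted p = 0.0154). The call was lost without OSKA − 4OHT replicate 2 or without any 1 of the OSKA + 4OHT wells, with adjusted p-values of 0.0578 to 0.0745 and log2 fold changes of 1.40 to 1.47.

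Within the VEGF family (*Vegfa*, *Vegfb*, *Vegfc*, *Vegfd* and *Pgf*), the most abundant ligand without 4OHT was *Vegfd*, at 57.8, 42.8 and 45.4 TPM against 37.1, 33.5 and 33.1 TPM with 4OHT (log2 fold change −0.48, limma-trend adjusted p = 0.177). *Vegfa* accounted for 16.6%, 17.1% and 13.3% of the summed ligand TPM in OSKA − 4OHT and for 37.9%, 38.9% and 42.5% in OSKA + 4OHT (exact 2-sided permutation p = 0.1, the smallest possible). Of the 12 tested ligands and receptors of the VEGF and adrenomedullin systems other than *Vegfa* and *Adm*, 1 passed an adjusted p of 0.05. This was *Nrp2*, a co-receptor for VEGF, with means of 41.9 ± 1.73 and 84.2 ± 8.46 TPM and a log2 fold change of 0.99 (adjusted p = 0.0156, limma-trend). Of the 12 genes, 5 had an unadjusted p under 0.05, 2 of them lower, against 21.3% of all tested genes in either direction. *Ramp1*, 1 of the 5, averaged 0.342 TPM without 4OHT. It passed the filter on low values only through the wells with 4OHT, so the count is not read as support. The median log2 fold change of the 12 genes was −0.18, or 0.06 over the 7 that pass a filter at 5 TPM. Without OSKA − 4OHT replicate 2 or OSKA + 4OHT replicate 1 or 2, 0 genes of this list passed, and without OSKA + 4OHT replicate 3, 2 did.

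*Adm* (ENSMUSG00000030790; chr7:110627661-110629820, plus strand) encodes adrenomedullin, a secreted peptide that widens vessels and supports endothelium. It was low throughout, at 6.52, 12.3 and 5.85 TPM in OSKA − 4OHT and at 7.91, 7.25 and 4.33 TPM in OSKA + 4OHT. The groups overlapped, and the highest and the lowest of the 6 values belonged to different groups. Its log2 fold change of −0.29 (SE 0.37, 95% interval −1.19 to 0.61, limma-trend adjusted p = 0.697) turned in sign without OSKA − 4OHT replicate 2 (0.03). These levels correspond to roughly 6 to 24 reads a well.

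**Figure D2:**
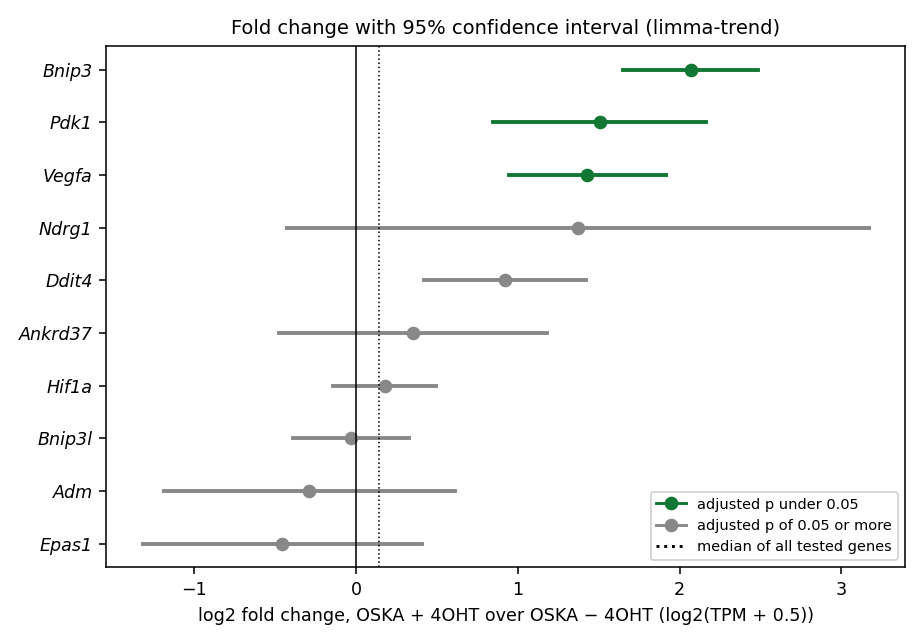
Log2 fold change of each gene, OSKA + 4OHT over OSKA − 4OHT, on the log2(TPM + 0.5) scale (horizontal axis), with its 95% confidence interval from limma-trend over 3 and 3 wells. Green marks an adjusted p under 0.05, and the dotted line is the median of all tested genes, 0.14. *Bnip3*, *Pdk1* and *Vegfa* lie to the right of 0 with their whole interval, as does *Ddit4*, whose adjusted p was 0.0589.

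*Ddit4* (ENSMUSG00000020108; chr10:59949669-59951834, minus strand) encodes REDD1, a stress-induced inhibitor of mTORC1 that acts through the TSC complex. It stood at 20.02, 22.4 and 22.7 TPM in OSKA − 4OHT and at 47.7, 46.9 and 31.7 TPM in OSKA + 4OHT. The groups did not overlap, and OSKA + 4OHT replicate 3 was the lowest well with 4OHT, as it was for *Hif1a*, *Epas1*, *Bnip3*, *Ndrg1*, *Adm* and *Pdk1*. Its log2 fold change was 0.92 (SE 0.21, 95% interval 0.42 to 1.42), and the adjusted p of 0.0589 by limma-trend missed the threshold. Without OSKA + 4OHT replicate 3 it was 1.11 with an adjusted p of 0.0331, and without any other single well the adjusted p stayed above 0.05. Among 13 other genes of mTORC1 and its brakes, 1 passed an adjusted p of 0.05. This was *Sesn3*, a sestrin that restrains mTORC1, at 17.4 ± 0.365 TPM without and 36.5 ± 3.80 TPM with 4OHT (log2 fold change 1.04, limma-trend adjusted p = 0.0191). With any well except OSKA + 4OHT replicate 3 left out, 0 genes of this list passed. The paralog *Ddit4l* had a log2 fold change of 0.07.

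*Ndrg1* (ENSMUSG00000005125; chr15:66929318-66969640, minus strand) encodes a cytoplasmic stress-response protein whose transcript is widely used as a marker of hypoxia. It was at 5.5, 16.4 and 38.8 TPM in OSKA − 4OHT and at 72.9, 41.5 and 21.8 TPM in OSKA + 4OHT. Its wells differed 7.06-fold within OSKA − 4OHT and 3.34-fold within OSKA + 4OHT, the widest spread of the 10 genes in either group, and the groups overlapped. Its log2 fold change of 1.37 was close to that of *Vegfa*, but its SE was 0.75 and its interval ran from −0.43 to 3.17 (limma-trend adjusted p = 0.356). These data therefore do not resolve whether *Ndrg1* differed.

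Of the other 3 NDRG genes 0 passed an adjusted p of 0.05 by limma-trend, and 1 had an unadjusted p under 0.05. *Ndrg2* was at 2.34, 10.6 and 44.5 TPM in OSKA − 4OHT and at 2.56, 3.02 and 2.30 TPM in OSKA + 4OHT, and its highest well, OSKA − 4OHT replicate 3, was also the OSKA − 4OHT well with the most *Ndrg1* and *Epas1*. *Ndrg3* (adjusted p = 0.245) and *Ndrg4* (0.231, limma-trend) had log2 fold changes of 0.41 and 0.49.

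*Ankrd37* (ENSMUSG00000050914; chr8:45996902-46005707, minus strand) encodes a small ankyrin-repeat protein and is a direct HIF-1 target in many cell types. It was at 5.07, 4.41 and 7.99 TPM in OSKA − 4OHT and at 7.33, 5.24 and 10.2 TPM in OSKA + 4OHT. The groups overlapped and the log2 fold change was 0.35 (SE 0.34, 95% interval −0.48 to 1.18, limma-trend adjusted p = 0.599). These values rest on roughly 3 to 9 reads a well, the fewest of the 10 genes. The width of an interval did not follow the read number alone, since *Epas1*, with about 115 to 356 reads a well, had an SE of 0.36. The gene overlaps *Lrp2bp* and *Ufsp2* on the other strand. Although the library kit keeps strand, whether the quantification used it is not given in the sources used here, so reads of these genes may not be fully separated.

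Per length, the order of the mean levels without 4OHT was *Bnip3l*, *Hif1a*, *Epas1*, *Bnip3*, *Ddit4*, *Pdk1*, *Ndrg1*, *Vegfa*, *Adm* and *Ankrd37*, from 153.8 TPM down to 5.83 TPM. Only *Bnip3l* and *Hif1a*, and *Hif1a* and *Epas1*, and *Bnip3* and *Ddit4*, were neighbours whose wells did not overlap. With 4OHT the order was *Bnip3*, *Bnip3l*, *Hif1a*, *Pdk1*, *Ndrg1*, *Ddit4*, *Vegfa*, *Epas1*, *Ankrd37* and *Adm*, from 167.3 TPM down to 6.496 TPM. *Bnip3* thus moved from the fourth to the first place, where its wells overlapped those of *Bnip3l*, and *Epas1* from the third to the eighth. The third place of *Epas1* rested on OSKA − 4OHT replicate 3 (68.7 TPM). Its replicates 1 and 2 (26.7 and 33.3 TPM) were below every OSKA − 4OHT well of *Bnip3*. The wells of *Bnip3l* and *Hif1a*, of *Hif1a* and *Pdk1*, of *Vegfa* and *Epas1* and of *Epas1* and *Ankrd37* did not overlap in OSKA + 4OHT.

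**Figure D3:**
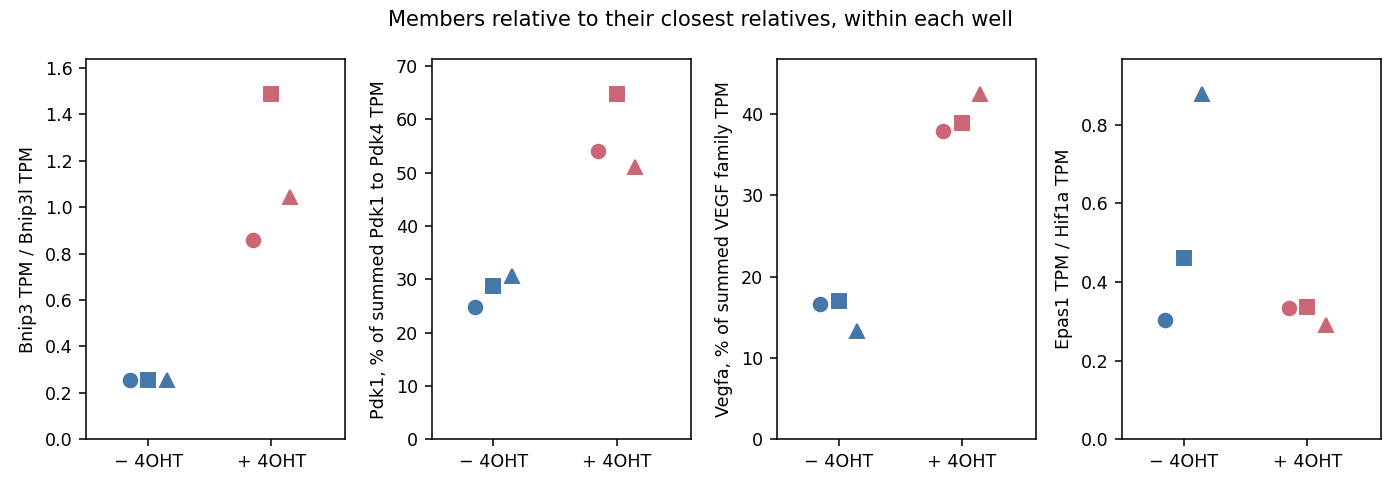
Level of a gene relative to its closest relatives in the same well, for OSKA − 4OHT (blue) and OSKA + 4OHT (red). Circles, squares and triangles are replicates 1, 2 and 3, and every vertical axis starts at 0. The ratio of *Bnip3* to *Bnip3l* and the shares of *Pdk1* and *Vegfa* in their families are separate between groups, and the ratio of *Epas1* to *Hif1a* is not.

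Among the genes that sense oxygen and control HIF-α, 1 of 10 tested rose and 0 fell by an adjusted p under 0.05, against 3.52% of all tested genes that rose and 1.97% that fell by this rule. *Egln3*, the prolyl hydroxylase PHD3 and itself a HIF target, was at 15.8, 24.7 and 21.6 TPM in OSKA − 4OHT and at 201.1, 199.5 and 150.0 TPM in OSKA + 4OHT. Its log2 fold change of 3.13 (SE 0.22, limma-trend adjusted p = 0.00347) exceeded that of every member. *Egln1*, the main oxygen sensor PHD2, had a log2 fold change of 0.70 (adjusted p = 0.101) and *Egln2* of −0.05 (adjusted p = 0.909), and *Vhl* of 0.64 (adjusted p = 0.416, limma-trend).

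All 17 glycolytic HIF targets were tested, and 8 rose and 0 fell, with a median log2 fold change of 1.06. The largest rises were those of *Slc2a1*, the glucose transporter GLUT1 (log2 fold change 3.03), *Slc16a3*, the lactate exporter MCT4 (2.65), *Aldoc*, an aldolase (1.87), *Pgk1*, phosphoglycerate kinase (1.498), and *Ldha*, lactate dehydrogenase A (1.19, adjusted p for the 5 genes 0.00462 to 0.0322, limma-trend). Among 26 tested of 28 other targets without a glycolytic role, 4 rose and 1 fell, with a median log2 fold change of 0.645, or 0.372 over the 23 that pass a filter at 5 TPM and 0.422 without OSKA + 4OHT replicate 1. Those that rose were *P4ha1*, a collagen prolyl hydroxylase (0.88, adjusted p = 0.0336), *Higd1a*, a mitochondrial inner membrane protein (1.35, adjusted p = 0.0176), *Hmox1*, heme oxygenase 1 (1.21, adjusted p = 0.00879), and *Ak4*, a mitochondrial adenylate kinase (1.08, adjusted p = 0.0215, limma-trend). Of the latter list 1 gene rose when any well except OSKA + 4OHT replicate 3 was left out, and of the glycolytic list 2 rose without OSKA − 4OHT replicate 2 or OSKA + 4OHT replicate 1 or 2, and 4 without OSKA − 4OHT replicate 3.

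The gene of this list that fell by limma-trend, *Lox*, acts on the extracellular matrix. This lysyl oxidase, which cross-links collagen, was at 703.7, 635.5 and 524.7 TPM in OSKA − 4OHT and at 155.7, 152.1 and 157.9 TPM in OSKA + 4OHT (log2 fold change −1.99, limma-trend adjusted p = 0.00342). The gene is well known in fibroblasts, and fibroblast markers also moved between the groups. Of 10 such markers 1 rose (*Col3a1*) and 3 fell (*Col1a2*, *Pdgfrb* and *S100a4*), and their summed level was 8400 to 10220 TPM in OSKA − 4OHT and 5717 to 6971 TPM in OSKA + 4OHT. Their part in this result was not tested. *Bhlhe40*, a transcriptional repressor of the same list, had a log2 fold change of −0.71 (limma-trend adjusted p = 0.0542) and passed an adjusted p of 0.05 in 4 alternatives, with trimmed-mean scaling (−0.84, adjusted p = 0.0304), quantile normalization (adjusted p = 0.0416), a filter at a mean of 5 TPM (adjusted p = 0.0452) and without OSKA − 4OHT replicate 3 (adjusted p = 0.0402).

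**Figure D4:**
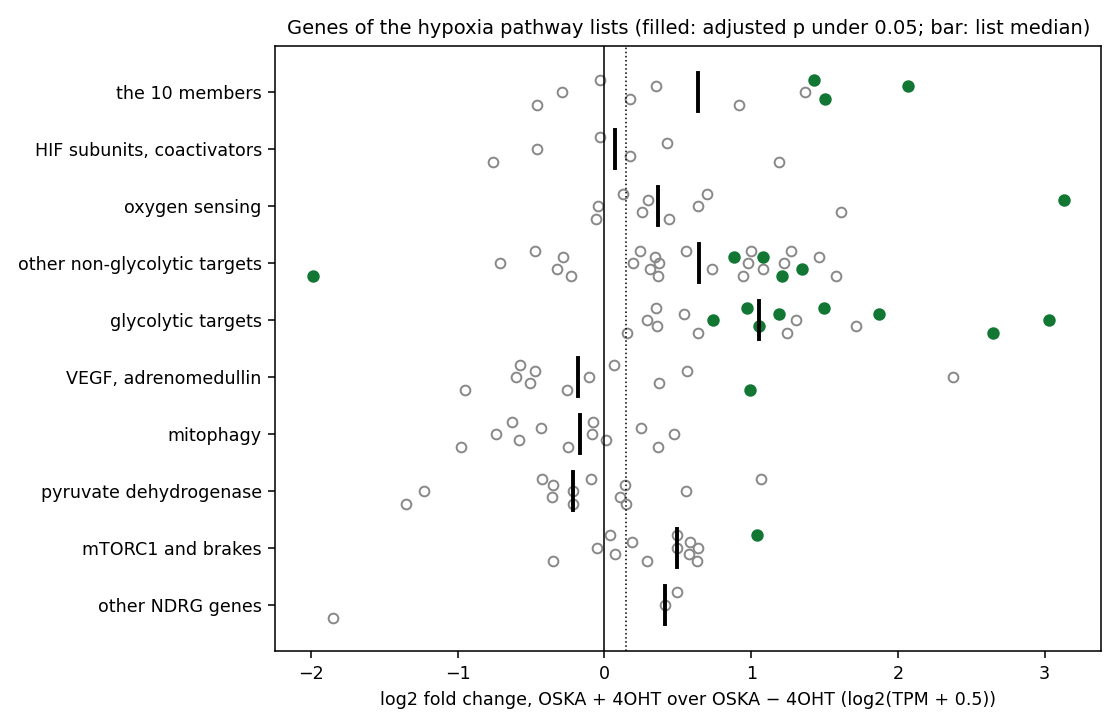
Log2 fold change, OSKA + 4OHT over OSKA − 4OHT (horizontal axis), of each tested gene in the 10 members and 9 lists of pathway genes. Filled green points have an adjusted p under 0.05, the short black bars are list medians and the dotted line is the median of all tested genes. The glycolytic targets have the highest median, 1.06, and *Lox* at −1.99 is the lowest point.

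The other markers describe the cells in which these levels were measured. All 10 fibroblast markers were detected in every well, as the label of the cells requires, with *Vim* at 2075 to 4553 TPM. Of 8 endothelial markers, 5 were under the filter, *Cdh5*, *Tie1*, *Emcn*, *Esam* and *Erg*, and 0 of the 3 tested passed by limma-trend (1 at an unadjusted p under 0.05), with a summed level of 22.3 to 30.1 TPM in OSKA − 4OHT and 28.5 to 44.3 TPM in OSKA + 4OHT. Of 8 macrophage markers 0 rose and 1, *Lyz2*, fell, with sums of 132.8 to 150.0 and 89.9 to 101.0 TPM. The lower sum came mostly from *Lyz2* alone (means 95.2 and 51.8 TPM), and 3 of the 8 had a log2 fold change above 0. The 8 pluripotency markers had sums of 2.87 to 3.69 TPM without and 36.5 to 53.6 TPM with 4OHT, and *Tdgf1*, *Nanog*, *Zfp42* and *Dppa5a* rose. Of these, *Nanog* (mean 0.247 TPM without 4OHT), *Zfp42* (0.530 TPM) and *Dppa5a* (listed at 0 in the 3 wells) passed the filter on low values only through the wells with 4OHT. The same holds for *Utf1*, listed at 0 in the 3 wells without 4OHT (adjusted p = 0.0830, limma-trend). Neither the number that rose nor the sums are therefore read as support. *Dppa3* was listed at 0 in all wells. The part of these markers in the levels of the HIF targets was not tested.

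The table keeps no read counts. Judged from the steps in which low values rise, the libraries had 0.482 to 1 times the reads of the deepest one in OSKA − 4OHT and 0.771 to 0.928 times in OSKA + 4OHT. On the same approximate scale, *Bnip3* rested on about 45 to 484 reads a well, *Vegfa* on 32 to 176, *Pdk1* on 68 to 616, *Ddit4* on 25 to 111 and *Ndrg1* on 17 to 417. The lowest *Ndrg1* value came from OSKA − 4OHT replicate 1, the shallowest library. An exact permutation test of 3 against 3 wells cannot give a 2-sided p under 0.1, and single genes were judged by the fit over all genes.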

How the data were processed

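PolyA libraries of 6 wells were made with a stranded kit and sequenced by the authors, who trimmed the reads with Trim Galore and quantified them with Salmon, named in the submitters' processing notes. TPM, 1 value for each gene in each well, is the unit of the deposited table. Versions, the annotation release and the use of strand are not given in the sources used here. The deposited table also holds 4 columns of the authors' own comparison (a log2 fold change, a log2 average level, an F score and a p-value of edgeR), which were not used.

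Symbols and positions came from GENCODE M21 (GRCm38), matched by Ensembl identifier. Since TPM are not counts, differences were tested with limma-trend (limma 3.58.1, R 4.3.3) on log2(TPM + 0.5) over genes averaging 1 TPM or more, with Benjamini-Hochberg adjustment over all of them and no block. The planned count test needed counts. On simulated data with 181 of 14612 genes changed, 52.5% were recovered with 5 false calls, so a gene that was not called is not shown to be unchanged. Within-well ratios were compared with exact permutation tests. Relative depth was read from steps in the values of genes with 1 transcript, with a fragment length of 250 bases assumed. Similar transcripts were searched with BLAST 2.17.0.

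The members, lists and tests were chosen with earlier results of these data known. Named are all members, up to 5 genes per list with the largest change at an adjusted p under 0.05, *Akt1*, and the 3 genes most like *Hif1a* and *Epas1* each. The members' closest relatives, *Arnt*, *Egln1*, *Egln2*, *Vhl*, *P4ha1*, the marker genes, and *Bhlhe40*, *Pdha1*, *Pdp1*, *Pdk4* and *Ramp1*, which passed only in alternatives, were named after their values were seen. A gene of 1 list is not reported here. The alternatives were other pseudocounts, filters, scalings and variance models, the replicate number as a block, and leaving out each well.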

Additional observations from a re-analysis of the deposited data

How the results depend on the processing

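All 10 genes kept the sign of their fold change under 10 alternative settings of the fit, and called genes kept their calls in all of them apart from the following. Without limma's trend *Pdk1* lost its call (log2 fold change 1.51, adjusted p = 0.0570), and with a filter at a mean of 5 TPM *Ddit4* passed (0.92, adjusted p = 0.0465). With the replicate number as a block, 31 genes were called higher and 16 lower, and 0 members, with adjusted p-values of 0.0927 for *Vegfa* (1.43), 0.0555 for *Bnip3* (2.07) and 0.122 for *Pdk1* (1.51). Of the listed pathway genes only *Slc2a1*, *Egln3* and *Lox* passed an adjusted p of 0.05 with the block, so that the glycolytic list fell from 8 higher to 1, the other targets from 4 to 0, and the lists of *Nrp2* and *Sesn3* from 1 to 0. Without limma's trend 6 glycolytic genes and 3 other targets rose, and *Ramp1* joined *Nrp2*. *Ramp1* (mean 0.342 TPM without 4OHT) passed the filter on low values only through the wells with 4OHT, so its rise is not read as support. *Bhlhe40* joined *Lox* among the other targets that fell with trimmed-mean scaling, quantile normalization or the 5 TPM filter. The median log2 fold change of the mitophagy genes ranged from −0.288 to −0.085, that of the pyruvate dehydrogenase genes from −0.348 to 0.0095 and that of the HIF subunits and coactivators from −0.0772 to 0.177 over all alternatives. The block uses up 2 of the 4 residual degrees of freedom. Deviations of same-numbered wells correlated at 0.0235, 0.0341 and 0.0837 across genes, and those of differently numbered wells at −0.062 to 0.0327. All are small, and they do not settle whether the numbers pair the wells. Rescaling by the trimmed mean of log ratios moved the median of all tested genes from 0.14 to 0.03 and the calls from 441 higher and 210 lower to 366 and 295, and quantile normalization gave 335 and 296.

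With 1 well left out in turn, which leaves fewer samples, 134 to 307 genes were called higher and 65 to 120 lower, and 1 to 3 members were called higher. The log2 fold change ranged from 1.30 to 1.58 for *Vegfa*, 1.92 to 2.16 for *Bnip3*, 1.30 to 1.75 for *Pdk1*, 0.82 to 1.11 for *Ddit4*, 0.11 to 0.25 for *Hif1a*, −0.73 to −0.06 for *Epas1*, 0.67 to 2.03 for *Ndrg1*, 0.13 to 0.58 for *Ankrd37*, −0.15 to 0.04 for *Bnip3l* and −0.48 to 0.03 for *Adm*. Of the members, only *Bnip3l* and *Adm* changed sign. Between 2 and 5 of the rank places in the order of levels changed.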
